A study of Mus musculus with 4 samples.

Results

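TOP2B peaks seen with a single antibody and placed between genes were examined in thymocytes. These are 892 of the 3564 peaks (25%) called in the library made with the Novus antibody. Each shares no base with any of the 17754 peaks of the Santa Cruz antibody, has its centre outside every protein-coding gene, and lies more than 1 kb from every protein-coding transcription start (mm9, GENCODE M1). They were thus chosen by the peak calls of both libraries and by position. Missing overlap and distance from genes are therefore no findings here. Of all Novus peaks, 2570 (72.1%) share no base with a Santa Cruz peak.

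Binding was measured by ChIPseq in thymocytes taken from the thymus of wild-type C57BL/6 mice of 4 to 6 weeks of age. TOP2B was precipitated with antibody sc13059 of Santa Cruz in 1 library and with NB100-40842 of Novus Biologicals in another. A TOP2A library and an IgG library of the same cells were not analysed here. No mutant allele, transgene or drug is named for any group, and a peak list holds no expression values with which the purity of the thymocytes could be checked. Each antibody was used in 1 library, so no spread between replicates can be given, and the lists hold positions without heights. The antibody, the library and its depth therefore cannot be told apart as sources of a peak found in 1 list.

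TOP2B is a type II topoisomerase that cuts both strands of a DNA duplex, passes another duplex through the gap and reseals it, which relieves supercoils and tangles. It is the isoform on which non-dividing cells rely, and it is known to be found near open chromatin and near sites of CTCF and cohesin, the proteins that hold the bases of chromatin loops. Thymocytes rearrange their T-cell receptor genes with the RAG recombinase, which cuts at recombination signal sequences beside V, D and J segments.

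The first sequences shown are the 6 peaks that hold the CTCF core motif without a mismatch closest to their centre, since this motif differed most between these peaks and the other lists. All sequences are whole peaks of the mm9 genome, on the plus strand and named by the closest protein-coding gene unless stated. Capitals mark the 12 letters of the core.
Actr1b/Zap70 chr1:36794255-36794449: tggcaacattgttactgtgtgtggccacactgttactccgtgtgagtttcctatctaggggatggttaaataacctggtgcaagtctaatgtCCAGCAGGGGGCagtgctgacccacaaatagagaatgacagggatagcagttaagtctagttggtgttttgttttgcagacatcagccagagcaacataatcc
Gm6578 chr6:12075461-12075655: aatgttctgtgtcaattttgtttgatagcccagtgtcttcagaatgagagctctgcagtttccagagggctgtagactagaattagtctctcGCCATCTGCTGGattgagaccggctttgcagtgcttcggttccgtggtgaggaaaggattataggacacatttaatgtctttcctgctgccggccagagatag
Icam2 chr11:106253255-106253449: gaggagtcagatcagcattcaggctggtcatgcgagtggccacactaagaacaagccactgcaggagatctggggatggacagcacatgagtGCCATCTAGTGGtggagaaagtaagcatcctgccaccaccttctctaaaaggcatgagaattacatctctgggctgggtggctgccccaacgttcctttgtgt
Pik3c2b chr1:134936072-134936266: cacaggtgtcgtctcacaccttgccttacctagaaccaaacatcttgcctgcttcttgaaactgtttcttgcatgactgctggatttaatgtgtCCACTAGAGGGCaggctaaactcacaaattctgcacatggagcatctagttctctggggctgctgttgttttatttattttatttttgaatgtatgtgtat
Ly86 chr13:37404514-37404708: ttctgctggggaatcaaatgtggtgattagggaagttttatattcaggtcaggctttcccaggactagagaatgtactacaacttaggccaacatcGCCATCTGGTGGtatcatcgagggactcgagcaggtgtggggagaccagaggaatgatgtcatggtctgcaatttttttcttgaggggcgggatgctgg
Nup93 chr8:96723483-96723677: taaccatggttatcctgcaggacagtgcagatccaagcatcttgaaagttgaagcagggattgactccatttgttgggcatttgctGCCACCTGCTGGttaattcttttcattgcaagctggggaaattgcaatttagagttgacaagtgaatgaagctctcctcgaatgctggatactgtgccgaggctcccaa
The capitals begin at base 93 of the peaks near Actr1b, Gm6578 and Icam2, with the middle of the motif 0.5 bp from the centre. In the peak near Nup93 they begin at base 87, 5.5 bp from the centre. The motif lies on the plus strand near Actr1b and Pik3c2b and on the minus strand in the other 4 peaks. The first of these peaks lies 23.1 kb from the start of Actr1b and 24.3 kb upstream of Zap70, the kinase that relays T-cell receptor signals.

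Shown next are 3 of the 5 peaks at antigen receptor loci, the genes that thymocytes or B cells assemble. Capitals mark the CTCF core in the first and the third, the latter with 1 mismatch, and the J segment Trbj1-5 in the second.
Trb between Trbv14 and Trbv15 chr6:41087014-41087208: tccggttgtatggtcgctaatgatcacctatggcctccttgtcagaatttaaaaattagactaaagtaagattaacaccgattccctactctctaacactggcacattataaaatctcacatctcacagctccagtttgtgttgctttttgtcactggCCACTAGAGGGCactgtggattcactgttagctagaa
Trb over Trbj1-5 chr6:41485057-41485251: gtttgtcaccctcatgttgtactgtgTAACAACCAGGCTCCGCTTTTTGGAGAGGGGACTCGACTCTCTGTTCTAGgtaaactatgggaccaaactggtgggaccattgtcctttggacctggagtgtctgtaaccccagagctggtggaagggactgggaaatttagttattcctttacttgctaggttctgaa
Igk between Igkv3-1 and Igkj1 chr6:70659748-70659942: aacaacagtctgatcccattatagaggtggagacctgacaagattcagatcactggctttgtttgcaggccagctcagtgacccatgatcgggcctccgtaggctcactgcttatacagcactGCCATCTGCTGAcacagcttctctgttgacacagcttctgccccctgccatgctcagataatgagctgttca

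The 3 peaks with the highest CpG ratio (the number of CG pairs over that expected from the C and G content) are shown because CpG-rich sequence was the second feature that differed. Capitals mark each CG. The first lies beside the noncoding gene Snhg5, and the others are named by the closest protein-coding gene.
Snhg5 chr9:88417873-88418067: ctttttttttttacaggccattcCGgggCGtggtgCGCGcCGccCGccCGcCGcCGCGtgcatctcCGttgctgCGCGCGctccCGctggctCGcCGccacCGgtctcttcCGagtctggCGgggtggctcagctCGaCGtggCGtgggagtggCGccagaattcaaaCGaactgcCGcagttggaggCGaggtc
Myoz1 chr14:21460136-21460330: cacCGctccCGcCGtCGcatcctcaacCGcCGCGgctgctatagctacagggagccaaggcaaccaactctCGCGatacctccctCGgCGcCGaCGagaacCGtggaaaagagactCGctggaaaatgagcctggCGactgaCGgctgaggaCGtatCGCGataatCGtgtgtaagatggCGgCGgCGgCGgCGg
Trim27 chr13:21292427-21292621: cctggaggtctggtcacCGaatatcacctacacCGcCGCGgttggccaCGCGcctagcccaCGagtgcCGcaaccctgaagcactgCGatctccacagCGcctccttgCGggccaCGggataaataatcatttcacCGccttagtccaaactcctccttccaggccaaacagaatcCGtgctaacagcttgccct
These peaks hold 27, 26 and 14 CG pairs. Their CpG ratios over the surrounding 501 bp are 1.11, 1.06 and 1.04, against a median of 0.22 over all 892 peaks. The GC content over the same length is 64.9%, 66.5% and 49.7%, so the third falls just under the 50% that CpG-rich sequence was required to have.

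The 2 peaks with the longest tandem repeat are shown because such repeats were scarce. Capitals mark the repeat, of 68 bp near Tox and 51 bp near Pappa.
Tox chr4:7126504-7126698: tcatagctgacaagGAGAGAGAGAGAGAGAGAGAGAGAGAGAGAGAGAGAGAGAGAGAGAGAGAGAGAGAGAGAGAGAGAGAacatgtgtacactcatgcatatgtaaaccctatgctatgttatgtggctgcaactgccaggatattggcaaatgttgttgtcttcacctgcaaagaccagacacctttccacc
Pappa chr4:64264911-64265105: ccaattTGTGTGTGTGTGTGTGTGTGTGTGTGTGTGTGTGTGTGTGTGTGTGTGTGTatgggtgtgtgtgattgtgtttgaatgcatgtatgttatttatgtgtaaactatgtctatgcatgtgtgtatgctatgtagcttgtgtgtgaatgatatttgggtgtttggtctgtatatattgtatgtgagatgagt

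The CTCF core motif was the feature that most clearly placed these peaks between the other TOP2B lists. With up to 1 mismatch on either strand and within 250 bp of the peak centre, it was found in 246 of 892 Novus-only peaks between genes, or 27.6% (exact 95% interval 24.7 to 30.6). Windows on a fixed grid of 1 per 10 kb, held to the same rule of position, had it in 3.58% of cases (154601 windows). Common peaks between genes, which are Novus peaks that do share a base with a Santa Cruz peak, had it in 198 of 408 cases (48.5%). Santa Cruz-only peaks between genes had it in 1141 of 7071 (16.1%).

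The share was 21 percentage points lower than in common peaks (difference -21, 95% Newcombe interval -26.6 to -15.3; adjusted p = 7.32e-12, two-sided Fisher's exact test). It was 11.4 points higher than in Santa Cruz-only peaks (8.48 to 14.6; adjusted p = 4.47e-14, Fisher's exact test). Against the 883 Novus-only peaks inside genes, of which 200 (22.7%) held the motif, the difference of 4.93 points (0.892 to 8.94) did not pass after adjustment (adjusted p = 0.081, Fisher's exact test). Peaks are counted items of 1 library and not replicates, so these tests compare lists and cover counting error only. Benjamini-Hochberg adjustment ran over 48 tests, that is 16 features against 3 peak classes, of which 8 (16.7%) passed 0.05.

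Matches without a mismatch followed the same order. They were found in 85 Novus-only peaks between genes (9.53%, 7.68 to 11.6), in 17.6% of common peaks, in 4.77% of Santa Cruz-only peaks and in 0.213% of grid windows. When the search was held to the peak itself, 144 Novus-only peaks between genes had a match with up to 1 mismatch (16.1%), against 1.39% of grid windows. With up to 2 mismatches the share was 58.4%, but 28.5% of grid windows then matched as well.

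The motif lay farther from the peak centre, at the median, than in common peaks. Its median distance from the centre was 82 bp (quartiles 43.5 and 134) in Novus-only peaks between genes, 63.5 bp in common peaks, 78.5 bp in Santa Cruz-only peaks and 122 bp in grid windows. It lay within 50 bp of the centre in 75 of 246 peaks with a match (30.5%, 24.8 to 36.7), against 78 of 198 common peaks (39.4%, 32.5 to 46.6). These intervals overlap, and the difference in position was not tested. The match was on the plus strand in 119 peaks and on the minus strand in 127. Where adjacent peaks within 1000 kb of each other both held a match (39 pairs), the motifs pointed the same way in 23, towards each other in 8 and away from each other in 8. Peaks of the other lists can lie between such a pair. The orientation was not tested, and nothing about loops can be read from it.

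**Figure D1:**
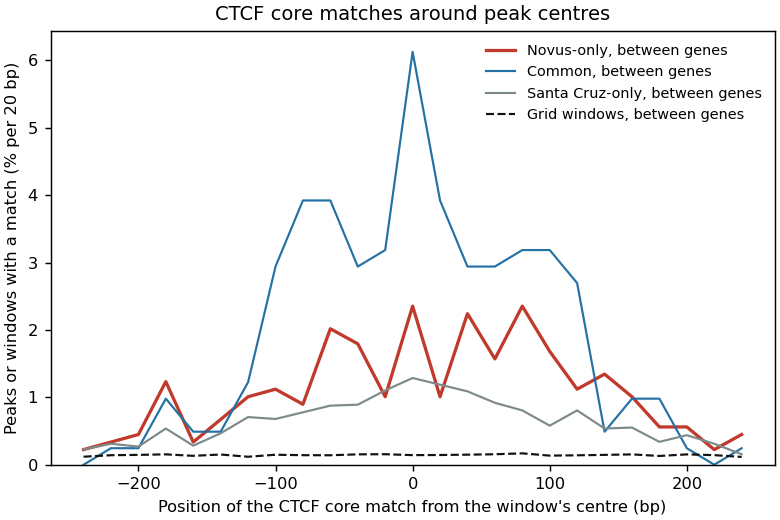
Share of peaks or grid windows with a CTCF core match (up to 1 mismatch) per 20 bp, by position from the centre in bp; lines stand for Novus-only (n = 892), common (n = 408) and Santa Cruz-only (n = 7071) peaks between genes and for the grid (n = 154601). Matches in the Novus-only peaks reach 2.35% at the centre and again at 70 to 90 bp, while the common peaks reach 6.13% at the centre.

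Distance from a gene start went with the motif share within the Novus-only peaks between genes. The share was 30.1% (23.6 to 37.2) for the 186 peaks 1 to 10 kb from a protein-coding start and 34.1% (29.5 to 38.8) for the 414 peaks at 10 to 50 kb. It was 18.4% (12.3 to 25.9) for the 136 peaks at 50 to 100 kb and 15.4% (10 to 22.3) for the 149 peaks at 100 to 500 kb. The 10 to 50 kb interval does not overlap those of the 2 farther groups. In each of these 4 groups the share was below that of common peaks, with values of 62.8%, 51.9%, 40.8% and 26.8%. It was above that of Santa Cruz-only peaks, at 23.5%, 20.7%, 13.3% and 7.66%. Grid windows had 5.77%, 4.77%, 3.66% and 2.74%. A lower share far from starts is thus not particular to the Novus-only peaks. In the farthest of the 4 groups the interval overlaps that of common peaks (15.8 to 40.3), and at 1 to 10 kb and at 50 to 100 kb it overlaps that of Santa Cruz-only peaks (21.3 to 25.9 and 11.4 to 15.4).

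**Figure D2:**
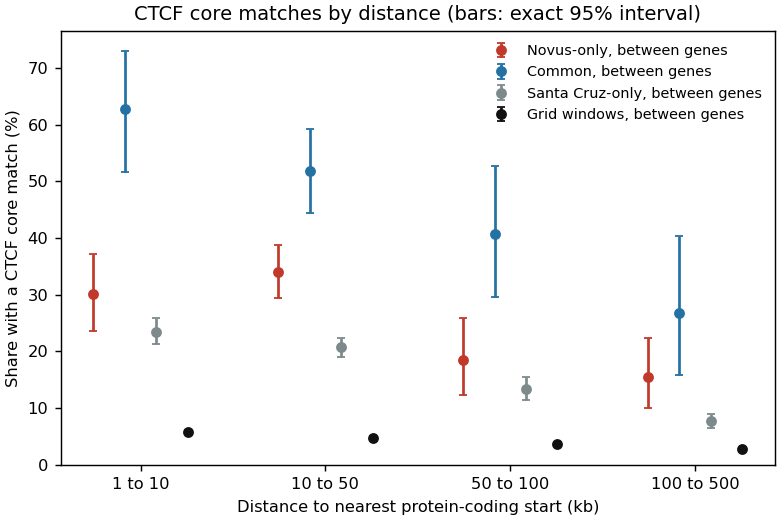
Share of peaks with a CTCF core match in percent (points, with exact 95% intervals as bars) in 4 ranges of distance to the nearest protein-coding start in kb, for 3 peak classes and the grid. The Novus-only peaks lie between the common and the Santa Cruz-only peaks in each range, from 30.1% at 1 to 10 kb to 15.4% at 100 to 500 kb.

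CpG-rich sequence, which in mammals marks the promoters of many broadly used genes, was the second feature to differ. It was defined as a GC content of at least 50% with a CpG ratio of at least 0.6 over 501 bp. It was found in 44 Novus-only peaks between genes (4.93%, 3.61 to 6.57), against 0.272% of grid windows. Santa Cruz-only peaks had it in 129 of 7071 cases (1.82%), which was 3.11 points lower (1.82 to 4.76; adjusted p = 1.88e-06, Fisher's exact test). The difference from common peaks, with 28 of 408 (6.86%), was -1.93 points (-5.06 to 0.703; adjusted p = 0.34, Fisher's exact test). That from Novus-only peaks inside genes, with 25 of 883 (2.83%), was 2.1 points (0.296 to 3.96; adjusted p = 0.098, Fisher's exact test). The share was 9.14% (5.41 to 14.2) at 1 to 10 kb from a protein-coding start and 3.62% (2.04 to 5.91) at 10 to 50 kb. It was 5.88% (2.57 to 11.3) at 50 to 100 kb and 2.68% (0.736 to 6.73) at 100 to 500 kb. These intervals overlap. In the same ranges common peaks had 9.3%, 7.41%, 3.95% and 5.36%, and Santa Cruz-only peaks 3.28%, 2.19%, 1.85% and 0.471%. Grid windows had 0.469%, 0.328%, 0.284% and 0.216%.

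The peaks as a whole were richer in G and C than the ground between genes. Their GC content ran from 32.5% to 72.7% with a median of 48.1% (quartiles 44.7 and 51.5). The medians were 48.9% in common peaks, 45.9% in Santa Cruz-only peaks and 40.7% in grid windows. The median CpG ratio of 0.22 lay between those of common peaks (0.286) and Santa Cruz-only peaks (0.18). Novus-only peaks inside genes had a median GC content of 48.1% and a median CpG ratio of 0.216. The classes were not matched for GC content when their features were compared.

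**Figure D3:**
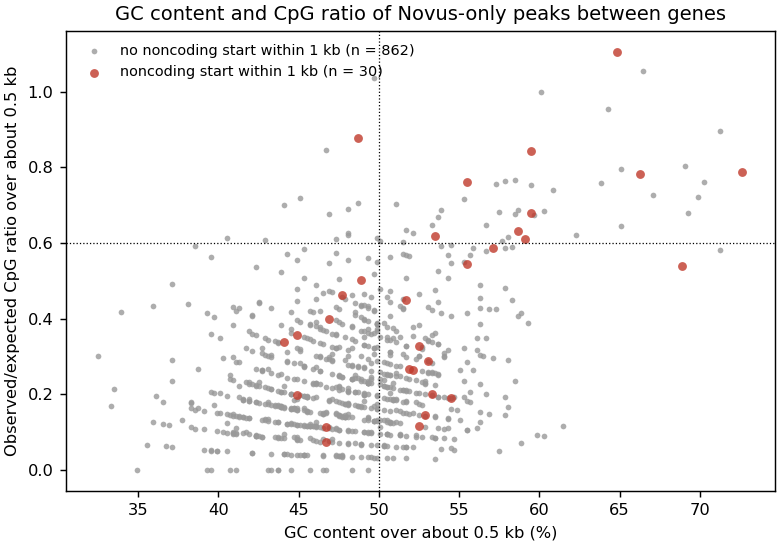
Observed over expected CpG ratio against GC content in percent, both over 501 bp, for the 892 Novus-only peaks between genes; red points are the 30 peaks within 1 kb of a noncoding start, and dotted lines mark a GC content of 50% and a ratio of 0.6. Of the 44 peaks above both lines, 9 are red.

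Starts of genes not annotated as protein-coding, called noncoding starts here, were left in by the choice of members and lay within 1 kb of 30 peaks (3.36%, 2.28 to 4.77), against 1.18% of grid windows. Common peaks had one in 3.43% of cases (difference -0.0681 points, -2.52 to 1.89), Santa Cruz-only peaks in 2.32% (1.04, -0.0226 to 2.48) and Novus-only peaks inside genes in 2.15% (1.21, -0.337 to 2.81). None of these 3 differences passed (adjusted p = 1, 0.193 and 0.317, Fisher's exact test). Of the 30 starts, 11 belong to lincRNAs (long noncoding RNAs between genes), 6 to processed transcripts and 5 to pseudogenes. This split was not made for grid windows or other peak classes. The class also takes in antigen receptor segments, which code for protein, and 1 of the 30 is such a segment, Trbj1-5. Among the 30 peaks, 9 were CpG-rich (30%, 14.7 to 49.4) and 6 held the CTCF core.

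The starts of this class closest to a peak centre were those of 4930412C18Rik at 9 bp, 4930555B11Rik at 22 bp and 1810058I24Rik at 24 bp, all lincRNAs, followed by the processed transcript Gm13842 at 25 bp. The peaks at the first 3 were CpG-rich, with ratios of 0.679, 0.617 and 0.782. They lay 73.6, 55.8 and 55.5 kb from the nearest protein-coding start. The lincRNA D930048G16Rik (42 bp) had a CpG-rich peak as well, with a Santa Cruz peak 239 bp away. At 4930447M23Rik (47 bp) the peak held the CTCF core, and a Santa Cruz peak lay 26 bp away. Next came 9630013D21Rik at 58 bp, the J segment Trbj1-5 and B230206F22Rik at 71 bp each, and Gm17717 at 104 bp. Snhg5, whose RNA hosts small nucleolar RNAs, is named because its peak has the highest CpG ratio, with the start 249 bp from the centre. Centres of 54 peaks lay inside a noncoding gene (6.05%, 4.58 to 7.83), 28 of them within lincRNAs and 23 within processed transcripts. None of the CTCF core, CpG-rich sequence and a noncoding start was found at 595 of the 892 peaks (66.7%, 63.5 to 69.8). Neither share was worked out for grid windows or other peak classes, so neither can be called high or low.

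Tandem repeats of at least 20 bp, made of units of up to 6 bases, were found in 16 peaks (1.79%, 1.03 to 2.9). They were 3.04 points less frequent than in Santa Cruz-only peaks, with 342 of 7071 (4.84%; difference -3.04, -3.91 to -1.84; adjusted p = 8.12e-05, Fisher's exact test). Grid windows had such a repeat in 6.16% of cases. Against common peaks (0.735%) and Novus-only peaks inside genes (1.25%) the differences were 1.06 points (-0.504 to 2.26) and 0.548 points (-0.641 to 1.78), and neither passed. In 879 of the 892 peaks (98.5%) every stretch of 75 bases, the length of the reads, occurred once in the genome. In no peak was this untrue of 50% or more of the stretches, and the share of wholly unique peaks was 99.2% among Santa Cruz-only peaks.

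Short binding motifs were searched on both strands within 250 bp of the centre, without mismatches. The letters were TGTGGTT for RUNX factors, CAGCTG for the E-box that E proteins bind in T cells, GGGCGGGG for SP and KLF factors, CCGGAAGT for ETS factors, CTTTGAT for TCF and LEF, AGATAAG for GATA factors, TGANTCA for AP-1, TGACGTCA for CRE, GCATGCGC for part of NRF1, AAGATGGC for part of YY1, CCAATCA for NFY and CACAGTG for the heptamer of recombination signals. In these peaks the CTCF match overlapped CAGCTG in 3 cases, AAGATGGC in 2, TGTGGTT in 1, CACAGTG in 1 and the other motifs in 0.

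RUNX factors are regulators of T-cell development, and their motif was found in 146 Novus-only peaks between genes (16.4%). That was 3.6 points more than in Santa Cruz-only peaks (12.8%; 1.18 to 6.28; adjusted p = 0.0261, Fisher's exact test), with 11.1% of grid windows. The difference from common peaks was 2.89 points (-1.42 to 6.82) and did not pass. Nor did that from Novus-only peaks inside genes (14.8%), at 1.53 points (-1.85 to 4.91). The GC box GGGCGGGG was found in 43 peaks (4.82%), 2.13 points more than in Santa Cruz-only peaks (2.69%; 0.847 to 3.78; adjusted p = 0.00928, Fisher's exact test), with 1% of grid windows. Common peaks had this GC box in 5.64% of cases (difference -0.817 points, -3.76 to 1.64) and Novus-only peaks inside genes in 3.17% (1.65, -0.189 to 3.53). Neither of these differences passed. The RUNX and GC-box differences from Santa Cruz-only peaks missed the threshold when the search was held to the peak itself. They were then 2.08 points (adjusted p = 0.0964) and 0.914 points (adjusted p = 0.14, Fisher's exact test). They also missed it when a distance of over 1 kb between centres was asked of single-antibody peaks, at 2.89 points (adjusted p = 0.132) and 1.57 points (adjusted p = 0.0957, Fisher's exact test).

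The E-box was the 1 short motif found less often than in another class. It was present in 249 Novus-only peaks between genes (27.9%), against 151 of 408 common peaks (37%; difference -9.1 points, -14.7 to -3.63; adjusted p = 0.00953, Fisher's exact test). Novus-only peaks inside genes had it in 302 of 883 cases (34.2%; difference -6.29 points, -10.6 to -1.98; adjusted p = 0.0285, Fisher's exact test). The second of these became -2.96 points (adjusted p = 0.281, Fisher's exact test) within the peak itself. Grid windows had it in 15.7% of cases. The motif of NFY, a factor of CCAAT-box promoters, was in 5.72% of the peaks and 2.45% of common peaks, and this difference of 3.27 points (0.857 to 5.32) missed the threshold (adjusted p = 0.0552, Fisher's exact test).

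The recombination heptamer CACAGTG was found at 133 peaks (14.9%, 12.6 to 17.4) and at 10.9% of grid windows. Its share differed from that of common peaks by -1.51 points (-5.99 to 2.6), of Santa Cruz-only peaks by 0.216 (-2.13 to 2.83) and of Novus-only peaks inside genes by -2.64 (-6.08 to 0.791), none of which passed. The ETS, TCF/LEF, GATA, AP-1, CRE, NRF1 and YY1 letters passed in none of their 21 tests. Shares of these 7 motifs in the peaks ran from 0.448% for CRE to 13.8% for AP-1.

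**Figure D4:**
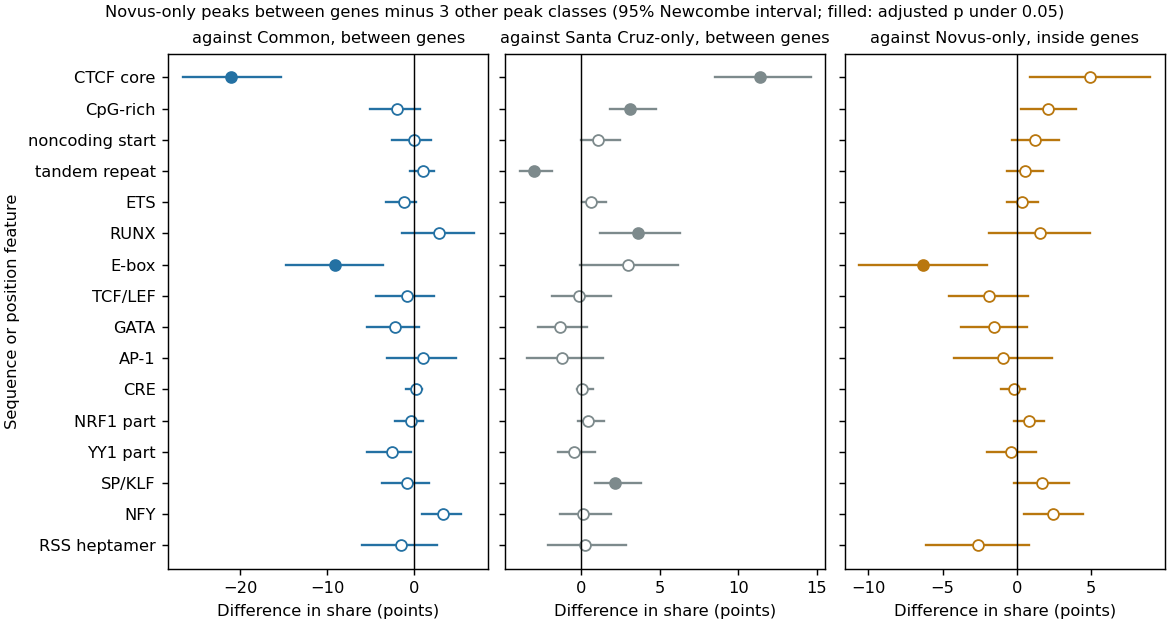
Share of Novus-only peaks between genes with each of 16 features minus the share in each of 3 other peak classes, in percentage points (points, with 95% Newcombe intervals as lines; filled points have an adjusted p under 0.05). The CTCF core stands lowest against common peaks at -21 points and highest against Santa Cruz-only peaks at 11.4 points.

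The peaks lay closer to genes than the grid windows did, though all were chosen to miss promoters. The median distance to the nearest protein-coding start was 28.6 kb (quartiles 12 and 68.2, highest 731), against 30.1 kb in common peaks, 40.6 kb in Santa Cruz-only peaks and 102 kb in grid windows. Of the 892 peaks, 414 (46.4%, 43.1 to 49.7) lay 10 to 50 kb from a start. The share was 46.3% in common peaks, 36.1% in Santa Cruz-only peaks and 24.6% in grid windows. Another 186 lay at 1 to 10 kb, 136 at 50 to 100 kb, 149 at 100 to 500 kb and 7 farther away. They lay upstream of the nearest start in 591 cases (66.3%). Leaving out gene bodies takes away ground downstream of starts. The upstream share was not worked out for grid windows or other peak classes, so it cannot be called high or low.

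**Figure D5:**
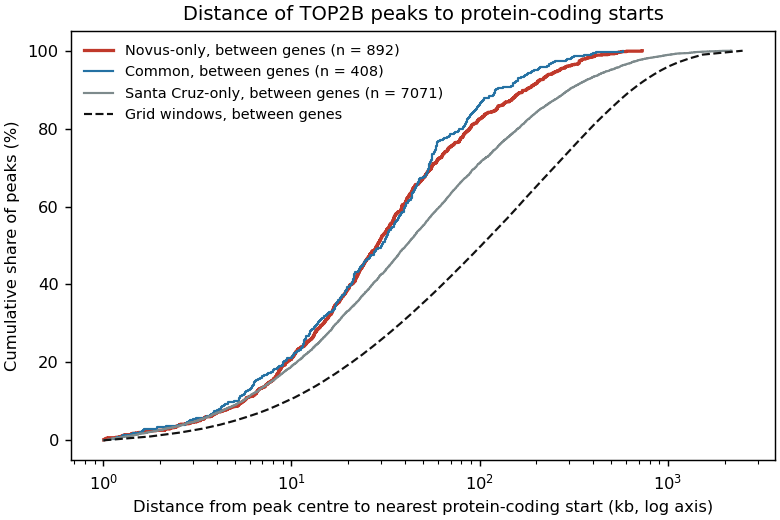
Cumulative share of peaks in percent against the distance from the centre to the nearest protein-coding start in kb on a log axis, for Novus-only (n = 892), common (n = 408) and Santa Cruz-only (n = 7071) peaks between genes and for grid windows. The medians are 28.6, 30.1, 40.6 and 102 kb.

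The peaks closest to a start, all just past the limit of 1 kb, were those of Hmgn1 (1004 bp), a nucleosome-binding protein, and of Angptl4 (1013 bp), Trerf1 (1018 bp), Gtf3c6 (1034 bp) and Grm2 (1039 bp). The Novus-only peaks outside genes that fell just short of the limit lay 897 bp from Gngt1, 843 bp from Triobp and 841 bp from Tmtc2. The farthest peaks were 731 kb from Diap2, 602 kb from Plekhb2, 566 kb from Vrk2, 550 kb from Car10 and 538 kb from Fam19a5. Of these 5, the peak near Diap2 held the CTCF core with 1 mismatch, and a Santa Cruz peak lay 3.96 kb from it. At Vrk2 the nearest Santa Cruz peak was 436 kb away.

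The gap to the nearest Santa Cruz peak had a median of 19.8 kb (quartiles 6.03 and 50.6). It was at most 0.2 kb for 73 peaks (8.18%, 6.47 to 10.2) and between 0.2 and 1 kb for 41 (4.6%). At chr13:28785015-28785209, inside the lincRNA 2610307P16Rik and 258 kb from Sox4, the peak ended on the base before the Santa Cruz peak began. A single base separated the lists at chr1:140682715-140682909, 56.2 kb from Lhx9, at chr2:71506049-71506243, 51.3 kb from Gm1631, and at the Trerf1 peak. On the other side of the limit, Novus peaks that shared 2, 4, 7, 8 and 8 bases with a Santa Cruz peak were left out. The 114 peaks with a gap of up to 1 kb held the CTCF core in 35.1% of cases (26.4 to 44.6) and were CpG-rich in 11.4% (6.21 to 18.7). The 778 others had 26.5% (23.4 to 29.7) and 3.98% (2.72 to 5.61). The intervals overlap for the CTCF core and not for CpG-rich sequence, and neither difference was tested.

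The peaks were scattered and seldom adjacent. The next peak of the same kind lay a median of 483 kb away, and the next Novus peak of any kind 111 kb away. Among bins of 100 kb, 785 held 1 such peak, 52 held 2 and 1 held 3. The bin with 3 lies on chromosome 11 from 32000001 to 32100000, near Il9r, the interleukin-9 receptor gene, with peaks 93.5, 38 and 17.5 kb from its start. Of these, the peak at 38 kb held the CTCF core without a mismatch, 138.5 bp from its centre, and had a GC content of 56.9%.

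The first bins with 2 peaks in genome order held the pair near Ccdc115 and the pair near Ctla4, the inhibitory receptor of T cells. The Ctla4 peaks lay 48.4 and 26 kb from its start, with Santa Cruz peaks 129 bp and 2.88 kb away. The next bins were those near Dusp10 and Hlx and near Gm1631. Pairs with centres within 1 kb of each other, which were picked after they had been seen, lay near Ccdc115 (665 bp apart), Plaur (588 bp), Gnai2 (857 bp) and Nipbl (524 bp). Nipbl is the loader of cohesin, and its pair lay 124 kb from the start.

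The density over the ground between genes was 0.577 peaks per Mb. It was highest on chromosome 11, with 68 peaks (1.11 per Mb), followed by chromosome 19 with 26 (0.859) and chromosome 17 with 41 (0.764). Chromosome X had 17 peaks (0.146 per Mb) and chromosome 14 had 23 (0.311). The other lists between genes were also denser on chromosome 11 than on chromosome X. Chromosome 11 held 31 common and 428 Santa Cruz-only peaks in 61.1 Mb of such ground. Chromosome X held 8 and 190 in 116.5 Mb. This contrast is therefore not particular to the Novus-only peaks. No test was made between chromosomes.

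At antigen receptor loci the peaks numbered 5, a count that was not tested and is no sign of an excess. These loci are large, as with Igh (chr12:114544600-117238672) and Igk (chr6:67505630-70676751). The ground between genes as a whole held 0.577 such peaks per Mb. The T-cell receptor β locus (Trb, chr6:40841295-41508370) held 2 and the immunoglobulin loci 3, while none fell inside or within 10 kb of Tra, Trd or Tcrg. In Trb, the peak at chr6:41087014-41087208 lay 1.5 kb after the V segment Trbv14 and 4.1 kb before Trbv15, and it held the CTCF core on the plus strand without a mismatch, 66.5 bp from the centre. The peak at chr6:41485057-41485251 covered the whole J segment Trbj1-5 (41485083 to 41485132). No CTCF core was found within 250 bp of its centre. The nearest Santa Cruz peaks were 23.9 and 69.3 kb away.

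In Igk, which B cells rearrange, both peaks lay between the last V segment in the annotation, Igkv3-1, and the first J segment, Igkj1. The peak at chr6:70659748-70659942 was 5.67 kb from Igkv3-1, with a Santa Cruz peak 175 bp away, and the peak at chr6:70664321-70664515 was 8.14 kb from Igkj1. Both held the CTCF core with 1 mismatch, 31.5 bp from the centre on the minus strand in the first and 16.5 bp (-16.5) on the plus strand in the second. The Igh peak, at chr12:114566147-114566341, lay 0.943 kb from the constant segment Ighg1 and held no match.

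Lists of genes with known roles in thymocytes were used to describe which of them had such a peak within 100 kb of a start. Of 138 listed genes found in the annotation, 28 did (20.3%, 13.9 to 28), while 2272 of all 22202 protein-coding genes did (10.2%). No test was made, because the lists were drawn up with earlier results of these data known and hold genes that lie side by side. By another count, 21 of the 138 listed genes and 806 of all 22202 protein-coding genes (3.63%) had the closest start to such a peak. Of these 21, 13 are among the 28.

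Among genes of the T-cell receptor complex and its signalling, 7 of 24 had a peak within 100 kb. Fyn, a Src-family kinase, had one 11.7 kb upstream, and Ptprc, which encodes the phosphatase CD45, had one 16.4 kb upstream. A peak 21.9 kb upstream of Cd8a, a co-receptor gene, also lay 28.7 kb from Cd8b1 and held the CTCF core with 1 mismatch. The peak 24.3 kb from Zap70 is the first of the sequences above. Prkcq, which encodes a protein kinase C, had a peak 53.2 kb upstream.

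Of the 23 T-lineage transcription factors, 4 had a peak in reach. The closest of all listed genes was Ikzf1, a zinc-finger factor of lymphoid cells, with a peak 5.69 kb upstream and inside the lincRNA Gm11999. Myb had one 20.2 kb upstream. Id3 and Id2, inhibitors of E proteins, had peaks at 27.2 and 32 kb, of which that of Id3 lay 1.7 kb from E2f2. None of these 4 peaks held the CTCF core.

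Of the 20 genes for V(D)J recombination and break repair, 4 had a peak in reach. A single peak lay 22.6 kb upstream of Rag1 and 47.3 kb from Rag2, which together encode the recombinase, with Traf6 as the closest gene (6.35 kb). Nhej1, an end-joining factor, had a peak at 28 kb with the CTCF core at 1 mismatch. Tdp2, the enzyme that removes topoisomerase II trapped on broken ends, had one at 45.5 kb, of which BC005537 was the closest gene (15.4 kb).

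Cytokine receptor, Notch and homing genes had 5 of 20 in reach, among them Il7r (45 kb), S1pr1 (51.4 kb) and Cxcr4 (67.8 kb), which guide survival and migration of thymocytes. The S1pr1 peak held a CTCF core without mismatch and lay 15 bp from a Santa Cruz peak. Genes of survival and death had 4 of 16, with Nr4a1, a nuclear receptor induced by T-cell receptor signals, at 25.9 kb, Bcl6 at 40 kb and Cdkn1a, a cell-cycle inhibitor, at 54.5 kb. Leukaemia genes had 3 of 20, namely Tlx1 (30.2 kb), Lmo1 (42.2 kb) and Dnm2 (58 kb). Of the 15 genes for cohesin, CTCF and loop factors, Ctcf itself (40.1 kb) was the 1 with a peak in reach, and Fam65a was closer to that peak (8.71 kb). The shares of these 7 lists ran from 6.67% (0.169 to 31.9) to 29.2% (12.6 to 51.1), beside 10.2% of all protein-coding genes. No list was tested. The highest share, that of T-cell receptor signalling, counts a single peak for both Cd8a and Cd8b1, so its interval cannot set this list apart.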

How the data were processed

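The authors fixed thymocytes, sonicated and immunoprecipitated the chromatin and made libraries by ChIPmentation. Single-end reads of 75 bases were trimmed, aligned to mm9 with Bowtie 1.2.0, and peaks were called per library with HOMER, at least 10-fold above IgG at an FDR of 1%. The methods give 62000000 reads for Novus, 76000000 for Santa Cruz and 66000000 for IgG. The deposited files hold positions (0-based starts, printed here as 1-based): all peaks are 195 bp wide in the Novus list and 187 bp in the Santa Cruz list, and the deposited score column is 0 in every row. No peak height or other threshold could be used, and how precise a given peak is cannot be said.

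Peaks were joined with the mm9 sequence (NCBIM37) and GENCODE M1. This annotation gives T-cell receptor segments the same gene types as immunoglobulin segments. An overlap was 1 shared base, and protein-coding starts were those of protein-coding transcripts. Members and gene lists were chosen with earlier results of these data known. The named items are the members at antigen receptor loci, the 25 closest listed genes (1 of them is not reported here), the 5 fullest bins, the 5 closest to and 5 farthest from a start, the 3 closest to a Santa Cruz peak (1 more tied) and the 10 closest to a noncoding start. Shares have exact (Clopper-Pearson) 95% intervals, which cover counting error only. Two-sided Fisher's exact tests were adjusted by Benjamini-Hochberg over 48 tests. The grid is a description without a test. The scripts were tested on simulated data. Tools were scipy 1.17.1, numpy 2.4.6, numba 0.67.0 and matplotlib 3.10.9 under Python 3.11.15. Masked repeats were not compared, since the sequence carries no masking, and 2 listed genes (Gfi1 and Ptcra) were not matched as protein-coding by name.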

Additional observations from a re-analysis of the deposited data

How the results depend on the processing

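The 892 peaks became 785 when a Santa Cruz centre had to lie over 1 kb away, 1049 when an overlap of less than 50% of both peaks was allowed, 859 with a start distance of 2.5 kb, 817 outside every annotated gene of any type and 890 with no base inside a protein-coding gene. The CTCF core share of 27.6% was 16.1% within the peak, 32.2% within 500 bp, 9.53% without mismatches and 58.4% with up to 2, which follows from how much sequence and how many letters are searched. It was 28% with 1 member per 100 kb, 27.7% without chromosome X and 27.5% outside all annotated genes. The CTCF, CpG and noncoding-start differences kept their direction and their side of the threshold in 43 of 45 further values. A start distance of 2.5 kb took the CpG-rich difference from Novus-only peaks inside genes to 2.97 points (adjusted p = 0.0047, Fisher's exact test), and a noncoding start within 2.5 kb in place of 1 kb turned the difference from common peaks to 0.284 points (-0.0681 as reported, neither past the threshold). The causes were not tested. Of 192 further values for the other 13 features, 5 missed the threshold and 1 newly passed it, namely NFY against common peaks at a start distance of 2.5 kb (3.28 points, adjusted p = 0.0493, Fisher's exact test). Another 13 changed sign with neither value past the threshold, and their causes were not tested. Within the peak itself these were, in points, RUNX against Novus-only peaks inside genes (-0.0743), TCF/LEF against common (0.0231) and Santa Cruz-only peaks (0.503), GATA against Santa Cruz-only peaks (0.44) and Novus-only peaks inside genes (0.31), AP-1 against common peaks (-0.256), and CRE (-0.0293), NRF1 (-0.101), NFY (-0.258) and the heptamer (-0.225) against Santa Cruz-only peaks. NFY against Santa Cruz-only peaks was -0.532 with 1 peak per 100 kb and -0.21 with centres over 1 kb apart, where the heptamer against common peaks was 0.0742. The listed genes with a member in reach numbered 54 within 250 kb, 20 within 50 kb and 21 by the closest start, against 28. The share of all protein-coding genes was 22.2% within 250 kb, 5.5% within 50 kb and 3.63% by the closest start. Counts of single lists moved as well. Cytokine receptor, Notch and homing genes went from 5 to 1 within 50 kb. By the closest start, survival and death and V(D)J genes each went from 4 to 0, and T-lineage factors from 4 to 9. A stricter list could not be run, since the lists hold no scores. No library could be left out. No paired analysis was possible because each antibody has 1 library and the shares come from no replicated test.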
